A study of Mus musculus with 28 samples.

Results

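The genes described here write, erase and read methylated cytosine in DNA. They are the methyltransferases *Dnmt1* and *Dnmt3a*, the Tet dioxygenases *Tet1*, *Tet2* and *Tet3*, the methyl-CpG binding domain genes *Mbd3*, *Mbd4* and *Mbd5*, and the hemimethylated and hydroxymethylated DNA binding gene *Uhrf2*. These 9 genes were taken by symbol from the 49477 genes that both count tables hold, and all 9 were among the 16266 genes tested, which had a mean of at least 10 counts. RNA came from bilateral micropunches of the amygdala of adult female C57BL/6J mice, which were all housed singly and drank from 2 tubes. Water mice had no access to alcohol, Acute mice had a single access to 20% ethanol with a choice of water at the end of the drinking period, and Chronic mice had the same choice every other day for a month. The 28 mice came in 2 batches, with 4 Water, 4 Acute and 3 Chronic mice in the first and 6, 5 and 6 in the second. Drinking was voluntary, so the dose differed between mice, and the punch held both the basolateral and the central amygdala.

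In the mammalian genome most CpG dinucleotides are methylated. Dnmt1 copies the mark onto the new strand after replication, and Dnmt3a sets it on unmethylated DNA, in neurons also outside CpG. Tet enzymes oxidize 5-methylcytosine to 5-hydroxymethylcytosine, which neurons hold at a high level, and further to bases that base excision repair removes. Readers bind the mark or, like Mbd3 and Mbd5, carry the binding domain and act in the chromatin complexes NuRD and PR-DUB.

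Total counts per mouse lay between 20004380 and 22569562, with like ranges in the 3 groups. At this depth *Tet1* and *Mbd4*, the lowest members, had means of 190 and 220 counts per mouse, and *Mbd5*, the highest, had 1541. Batch separated the mice more than drinking did, since 46.2% of all genes tested differed between batches. Among the members *Dnmt1* was higher in the second batch by 0.216 on the log2 scale (edgeR quasi-likelihood test, adjusted p = 9.18e-09), *Mbd5* was higher by 0.101 (adjusted p = 0.0182) and *Mbd4* had a log2 difference of −0.132 (adjusted p = 0.0218). The other 6 members did not pass this test. The table of the second batch held in part identifiers of another annotation release (50047 of its 51073 identifiers are in GENCODE M21 with the same version, against all 50051 of the first table), so annotation and batch cannot be told apart, although the identifiers of all 9 members were the same in both. Levels are therefore given below as CPM, counts scaled to a common library size, with the batch means removed.

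The promoters of the 3 members with the smallest p against Water, *Tet3*, *Mbd3* and *Mbd5*, are shown first because CpG is the site that the pathway writes, erases and reads. Each is the 250 bases before the most upstream RefSeq start (build GRCm38.p6), written 5′ to 3′ on the strand of the gene, with each CG in capitals. The *Tet3* window is chr6:83441679-83441928 on the minus strand. It begins 17156 bases inside the gene as GENCODE M21 annotates it, so it is not the window before the annotated start, and touches no annotated exon of *Tet3*. The *Mbd3* window is chr10:80399532-80399781 on the minus strand, and its last 19 bases lie in the first exon of GENCODE. The *Mbd5* window is chr2:48949258-48949507 on the plus strand and lies just before the annotated gene.
*Tet3*: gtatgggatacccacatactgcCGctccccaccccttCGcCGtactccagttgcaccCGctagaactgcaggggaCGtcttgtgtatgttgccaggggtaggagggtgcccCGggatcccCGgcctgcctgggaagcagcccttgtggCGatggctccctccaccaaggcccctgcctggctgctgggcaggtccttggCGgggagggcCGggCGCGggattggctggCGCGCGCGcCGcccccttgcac
*Mbd3*: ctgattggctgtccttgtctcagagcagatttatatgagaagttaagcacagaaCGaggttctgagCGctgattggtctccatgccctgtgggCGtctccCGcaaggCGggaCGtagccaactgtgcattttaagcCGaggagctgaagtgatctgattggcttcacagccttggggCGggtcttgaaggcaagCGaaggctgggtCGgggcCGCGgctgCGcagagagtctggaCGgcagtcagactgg
*Mbd5*: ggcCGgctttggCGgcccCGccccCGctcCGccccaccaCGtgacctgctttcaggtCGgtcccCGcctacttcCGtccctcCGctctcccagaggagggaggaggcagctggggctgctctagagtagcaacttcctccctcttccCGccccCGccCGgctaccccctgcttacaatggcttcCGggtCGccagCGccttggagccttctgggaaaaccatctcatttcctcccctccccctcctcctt

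The search was for the letters CG, which read the same on both strands. The *Tet3* window held 17 CG, the *Mbd3* window 14 and the *Mbd5* window 16. Over 27025 genes with such a window the median was 6 CG, and 91.7% held at least 1. Windows with at least as many CG made up 23.5%, 29.5% and 25.5% of all promoters for *Tet3*, *Mbd3* and *Mbd5*. Among the other members the most upstream window of *Tet2* held 51 CG, a number that 0.0666% of promoters reached. That of *Dnmt3a* held 38, *Uhrf2* 23, *Mbd4* 22 and *Tet1* 15. The windows of *Tet1*, *Dnmt3a* and *Tet2* also begin inside the annotated gene, by 21422, 723 and 499 bases. *Dnmt1* has 3 RefSeq starts, with 2 CG before the most upstream and 26 before the most downstream. DNA methylation itself was not measured in these mice.

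The members spanned a wide range of levels. Per kilobase of the longest coding transcript, *Mbd3*, a subunit of the NuRD repressor complex, had the highest level at 42.9 CPM per kb (range over 28 mice 37.2 to 50.1). *Uhrf2*, a ubiquitin ligase that binds 5-hydroxymethylcytosine, followed at 14.0, and *Dnmt1* at 9.97. *Mbd5*, whose loss of a copy causes a neurodevelopmental disorder in humans, had 8.74 CPM per kb, and *Dnmt3a* had 6.84. *Tet2* at 4.29 and *Tet3* at 4.25 CPM per kb did not differ beyond their spread, and *Tet2* was the higher of them in 14 of 28 mice. *Mbd4*, a glycosylase that removes thymine from T:G mismatches at CpG, had 2.93, and *Tet1* was lowest at 0.639 CPM per kb (0.482 to 0.778). Every other pair of neighbours in this order kept it in 28 of 28 mice. The order rests on the transcript length used. With the mean length of all coding transcripts *Mbd3* stayed first and *Tet1* last, but *Dnmt3a*, whose longest transcript has 9685 bases against a mean of 2491.5, moved from place 5 to place 2 with 26.6 CPM per kb.

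**Figure D1:**
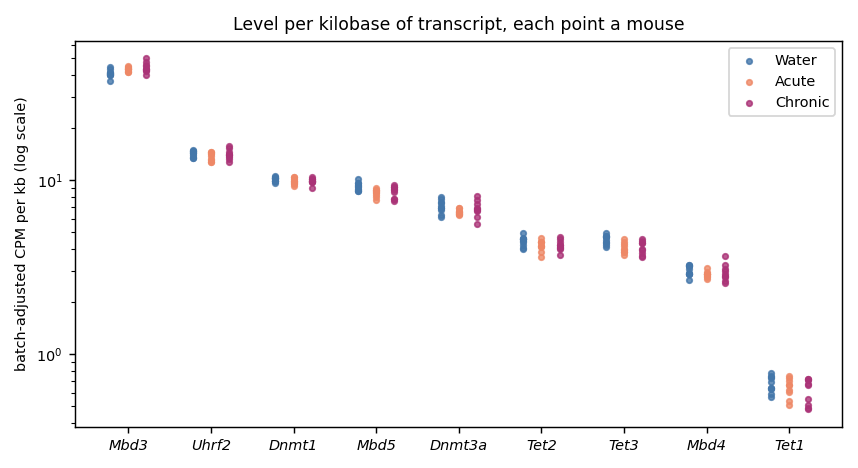
Level of each member in CPM per kb of its longest coding transcript, with batch means removed, on a log axis; each point is a mouse, and the columns of points are Water, Acute and Chronic. *Mbd3* lies highest at about 42.9 and *Tet1* lowest at about 0.639 CPM per kb, and the 3 groups overlap for every member.

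The shares of a family rest on the transcript length too. Within the Tet family, on the longest transcript, *Tet1* made up 6.99% ± 0.696 of the summed level per kb in Water mice (SD, n = 10), *Tet2* 45.9% ± 1.51 and *Tet3* 47.1% ± 1.66. In Acute mice the *Tet3* share was 45.9% ± 2.0 (n = 9) and in Chronic mice 45.7% ± 2.34 (n = 9), within the spread of the Water mice. *Dnmt1* made up 58.9% ± 2.10 of the summed level of *Dnmt1* and *Dnmt3a* in the Water group, 60% ± 1.19 in the Acute group and 59% ± 2.06 in the Chronic group. With the mean length of all coding transcripts *Dnmt3a* held the larger share: *Dnmt1* made up 28.3% ± 1.78 in Water mice and *Dnmt3a* 71.7% ± 1.78, and *Tet1* made up 12.4% ± 1.17 of the Tet family. Their relatives were scarce in this tissue. *Dnmt3b*, the other de novo methyltransferase, had a mean of 11.8 counts (3 to 22 per mouse), *Uhrf1*, which guides Dnmt1 in dividing cells, had 15 (5 to 28), and *Dnmt3l* had 2.43 and was not tested. Among *Mbd3*, *Mbd4* and *Mbd5*, the share of *Mbd5* was 17.3% ± 1.15 in Water mice, 15.4% ± 0.676 in Acute mice and 15.3% ± 1.56 in Chronic mice. The share of *Mbd3* was 77.0% ± 1.48, 79.3% ± 0.837 and 79.4% ± 2.10. On the mean length *Mbd5* had 24.4% ± 1.48, 22.1% ± 0.884 and 21.9% ± 2.04 in these groups.

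The first question was whether a single access to alcohol altered these genes. None of the 9 members passed the threshold of 0.05 in Acute against Water mice (edgeR quasi-likelihood test over all 28 mice with batch as a covariate, Benjamini-Hochberg adjusted over 16266 genes, adjusted p 0.384 to 0.832). Of all genes tested 0% passed it. At an unadjusted p under 0.05 edgeR counted 3 of the 9 members, against 9.52% of all genes, and 0 at the adjusted threshold. DESeq2 with batch as a covariate also counted 3 members at the unadjusted level, against 9.4% of all genes. It gave no adjusted p to *Tet1* and *Mbd4*, and 0 of the other 7 passed after adjustment, against 0.0965% of the 9327 genes that had one. DESeq2 after ComBat-seq counted 3, against 10.1%, and 0 of 9 after adjustment, against 0.234% of 12818 genes. limma-voom with quality weights counted 5, with *Dnmt3a* and *Tet2* added, against 10.2%, and 0 of 9 after adjustment, against 0.0123%. Of the 9 log2 fold changes 8 were below 0, against 49.4% of all genes, and the median was −0.0774, against 0.0011 over all genes. In Chronic against Water mice again 0 of 9 members passed (adjusted p 0.234 to 0.949), against 0.0184% of all genes. Here 3 members had an unadjusted p under 0.05 by edgeR, against 10.5% of all genes, and 0 at the adjusted threshold. DESeq2 with batch as a covariate counted 3, against 10.2%, and after ComBat-seq 3, against 11.1%. Both gave no adjusted p to *Tet1* and *Mbd4*, and 0 of the other 7 passed, against 0.437% of 8696 and 1.05% of 8396 genes. limma-voom counted 3, against 10.5%, and 0 of 9 after adjustment, against 0.0123%. Of the log2 fold changes 8 were below 0, against 49.0% of all genes, with a median of −0.0401 against 0.0022. Both comparisons use the same 10 Water mice, so their values are not independent of each other.

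**Figure D2:**
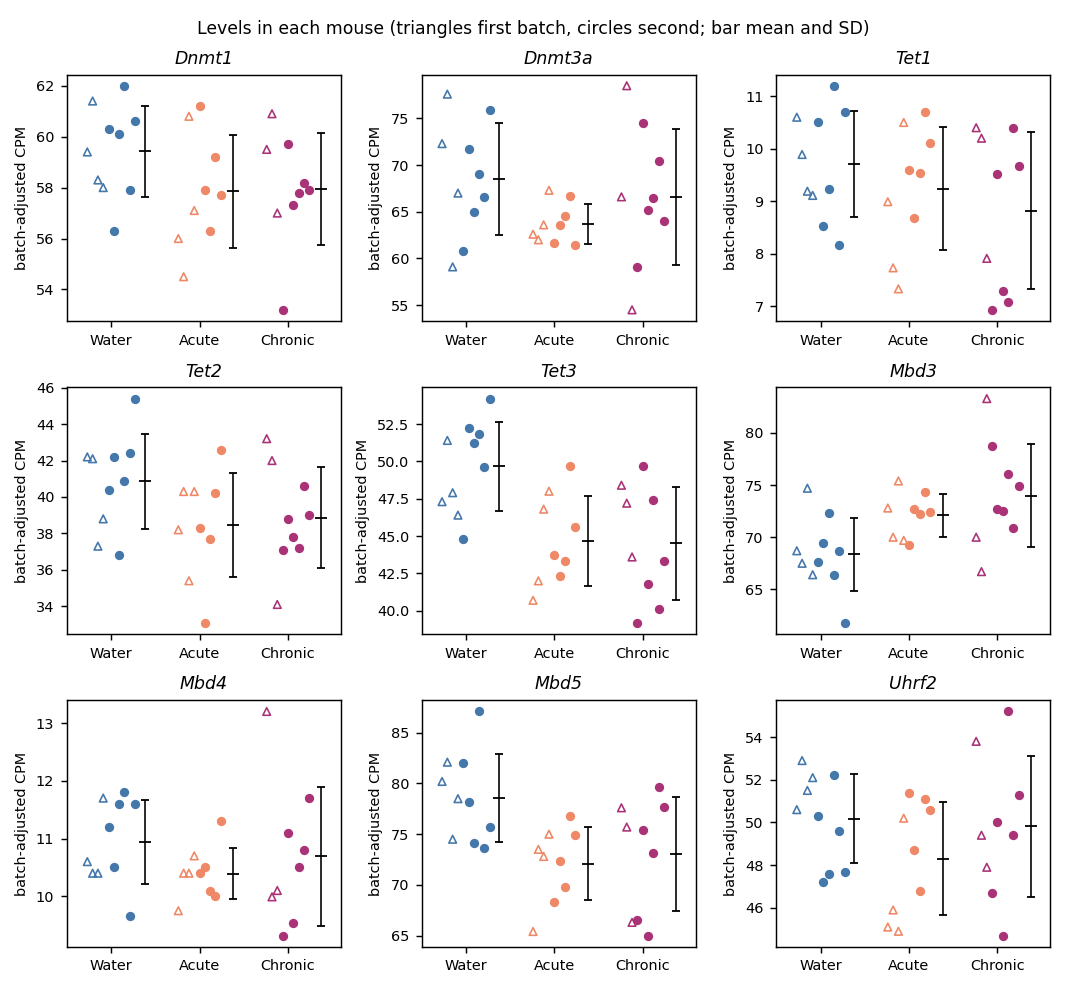
Batch-adjusted CPM of each member in each of the 28 mice, with open triangles for the first batch and filled circles for the second; the bar beside each group is its mean and SD, and each panel has its own axis, which does not start at 0. The groups overlap in all 9 panels, and the Acute mice lie mostly low in *Tet3* and *Mbd5* and high in *Mbd3*.

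Among the erasers *Tet3*, a Tet enzyme of adult neurons, had the largest of the members' log2 fold changes in both comparisons. Its batch-adjusted level in Water mice ran from 44.8 to 54.2 CPM, with a median of 50.4. Acute mice ran from 40.7 to 49.7 (median 43.7) and Chronic mice from 39.2 to 49.7 (median 43.6). In the first batch the 4 Water mice had 47.3, 51.4, 47.9 and 46.4 CPM, the 4 Acute mice 40.7, 42.0, 46.8 and 48.0, and the 3 Chronic mice 48.4, 47.2 and 43.6. The groups overlapped, and 8 of 9 Acute and 8 of 9 Chronic mice lay below the Water mean. The log2 fold change was −0.153 ± 0.0473 (SE) in Acute mice (95% interval −0.250 to −0.0564, edgeR adjusted p = 0.384, unadjusted rank 124 of 16266 genes), a level lower by 10.1%. In Chronic mice it was −0.159 ± 0.0472 (−0.255 to −0.0618, adjusted p = 0.234). Taken alone, the first batch gave −0.124 (Acute) and −0.0563 (Chronic), and the second −0.175 and −0.217. *Tet3* (chr6:83362373-83459084, minus strand, 11 exons in its longest coding transcript) overlaps *B230319C09Rik* on the other strand over 6568 bases and *5430434F05Rik* on its own strand over 3553. Overlaps here and below are of whole gene spans, introns included, and how much of them lies in exons was not examined. Whether the counting kept strands apart is not given in the sources used here. Reads could thus be shared where exons overlap.

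*Tet1* and *Tet2* had intervals that spanned 0. *Tet2*, which lacks the CXXC domain of Tet1 and Tet3, ranged from 36.8 to 45.4 CPM in Water (median 41.5), 33.1 to 42.6 in Acute (38.3) and 34.1 to 43.2 in Chronic mice (38.8). Its log2 fold changes were −0.0865 ± 0.0469 (SE) in Acute mice, where 8 of 9 lay below the Water mean, and −0.0704 ± 0.0469 in Chronic mice (edgeR adjusted p = 0.574 and 0.622). *Tet1* ranged from 8.16 to 11.2 CPM in Water, 7.33 to 10.7 in Acute and 6.93 to 10.4 in Chronic mice, with medians of 9.56, 9.54 and 9.51. Its spread between mice of a group was the widest of the members, with a biological coefficient of variation of 12.3% against 8.16% for the median gene. The *Tet1* log2 fold changes were −0.0735 ± 0.0907 and −0.141 ± 0.0910, with −0.173 and −0.0291 in the first batch alone and −0.0001 and −0.201 in the second.

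Among the writers *Dnmt3a* had 61.4 to 67.3 CPM in Acute mice (median 63.6), inside the Water range of 59.1 to 77.6 (median 68.0). All 9 Acute mice lay below the Water mean, and the log2 fold change was −0.105 ± 0.0545 (edgeR adjusted p = 0.552). Chronic mice spread from 54.5 to 78.5 CPM (median 66.5), beyond the Water mice on both sides, and had a log2 fold change of −0.0401 ± 0.0544 (adjusted p = 0.844). The lowest and the highest of these Chronic values were both from the first batch. *Dnmt1* had the narrowest spread of the members, with a biological coefficient of variation of 3.71%. It ranged from 56.3 to 62.0 CPM in Water, 54.5 to 61.2 in Acute and 53.2 to 60.9 in Chronic mice. Its log2 fold changes were −0.0397 ± 0.0272 (95% interval −0.0953 to 0.0159) and −0.0374 ± 0.0272 (−0.0930 to 0.0182), which bound any difference for *Dnmt1* more tightly than for the other members. *Dnmt3a* overlaps its antisense gene *Dnmt3aos* over 2952 bases.

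Among the readers *Mbd5*, whose protein joins the histone H2A deubiquitinase complex PR-DUB, ranged from 73.6 to 87.1 CPM in Water mice (median 78.4). Acute mice ran from 65.4 to 76.8 (median 72.8) and Chronic mice from 65 to 79.7 (median 75.4). All 9 Acute and 8 of 9 Chronic mice lay below the Water mean, with overlap between the groups. The log2 fold change was −0.124 ± 0.0413 in Acute mice (95% interval −0.209 to −0.0398, edgeR adjusted p = 0.407) and −0.107 ± 0.0413 in Chronic mice (−0.191 to −0.0221, adjusted p = 0.346). The batches gave like values, −0.139 and −0.117 for Acute and −0.106 in each for Chronic mice. *Mbd5* (chr2:48949508-49325405, plus strand) overlaps *Orc4* on the other strand over 770 bases. On its own strand it overlaps the processed pseudogenes *Gm13509* over 1308 bases and *Gm13510* over 429.

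*Mbd3* was the only member with a value above 0 in both comparisons. It ranged from 61.8 to 74.7 CPM in Water mice (median 68.2). Acute mice ran from 69.3 to 75.4 (median 72.4) and Chronic mice from 66.7 to 83.3 (median 72.7). All 9 Acute and 8 of 9 Chronic mice lay above the Water mean, and 1 Chronic mouse of the first batch had the highest value. The log2 fold change was 0.0762 ± 0.0353 in Acute mice (95% interval 0.0039 to 0.148, edgeR adjusted p = 0.502) and 0.115 ± 0.0353 in Chronic mice (0.0426 to 0.187, adjusted p = 0.241), a level higher by 8.29%. The first batch gave 0.0520 and 0.0805, and the second 0.0901 and 0.135. *Mbd3* (chr10:80392539-80399550, minus strand) spans 7012 bases and overlaps no other gene, and its longest coding transcript, with 1662 bases and 62.9% GC, is the shortest and most GC-rich of the members'.

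*Mbd4* ranged from 9.66 to 11.8 CPM in Water, 9.75 to 11.3 in Acute and 9.32 to 13.2 in Chronic mice. Its log2 fold changes were −0.0774 ± 0.0559 and −0.0342 ± 0.0558, and in Chronic mice the batches gave 0.0378 and −0.0763. *Uhrf2* ranged from 47.2 to 52.9 CPM in Water, 44.9 to 51.4 in Acute and 44.7 to 55.2 in Chronic mice, with log2 fold changes of −0.0557 ± 0.0377 and −0.0105 ± 0.0377. For Acute mice the first batch alone gave −0.156 and the second 0.0154. A test of whether the drinking effect differed between batches did not pass for *Uhrf2* (edgeR interaction, unadjusted p = 0.07 in a fit over all genes, adjusted p = 0.969) or for any other member (adjusted p 0.969 to 1), and passed for 0% of all genes. At an unadjusted p under 0.05 it counted 0 members, against 4.82% of all genes.

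**Figure D3:**
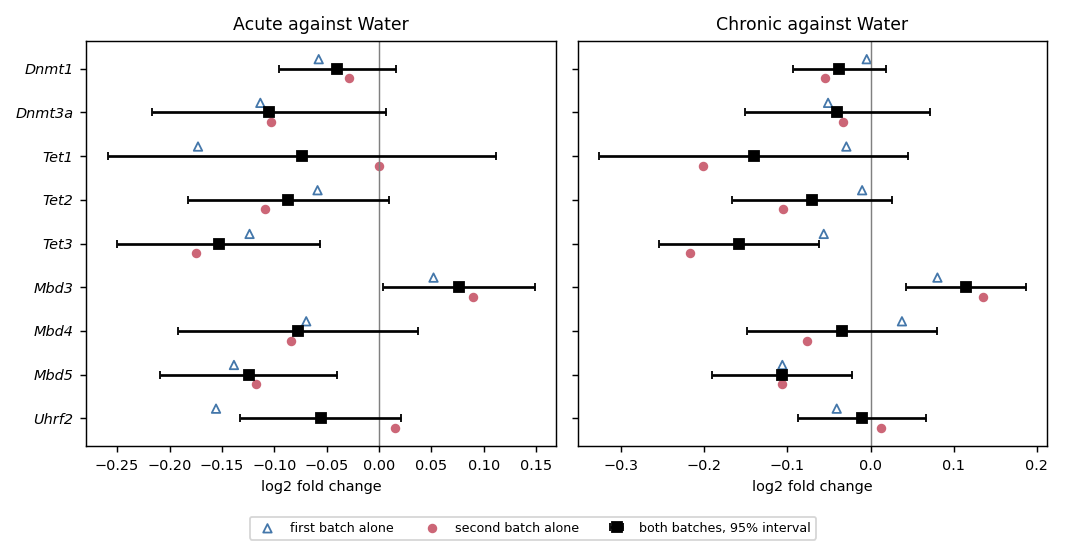
Log2 fold change of each member against Water mice, with squares and 95% intervals from the edgeR fit over both batches, triangles for the first batch alone and circles for the second alone; Acute is on the left, Chronic on the right, and the panels have different axis ranges. The intervals of *Tet3* and *Mbd5* lie below 0 and that of *Mbd3* above 0 on both sides, before adjustment for the number of genes.

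Acute and Chronic mice were then compared directly. None of the 9 members passed (edgeR adjusted p 0.998 to 0.999), as 0% of all genes did, and none had an unadjusted p under 0.05, against 4.44% of all genes. The log2 differences of Chronic from Acute mice lay between −0.0669 for *Tet1* and 0.0648 for *Dnmt3a*, with a median of 0.0177 against −0.0009 over all genes. For *Tet3* the difference was −0.0053 (95% interval −0.105 to 0.0943), for *Mbd5* 0.0177 (−0.0693 to 0.105) and for *Mbd3* 0.0387 (−0.0355 to 0.113). A p above the threshold does not show that the 2 schedules acted alike.

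Mice differed in how expression followed transcript length and GC content, and these trends moved with the members. In each mouse the deviation of all genes from their batch means was fitted on transcript length and GC content. The slopes come from expression itself, so differences of the library and of drinking cannot be told apart in them. The slope on length was 0.0128 ± 0.0204 log2 CPM per doubling in Water mice (SD, n = 10), −0.0077 ± 0.0152 in Acute mice (n = 9; exact permutation test within batches, 2-sided, p = 0.0199, adjusted over 6 comparisons 0.0596) and −0.0066 ± 0.0287 in Chronic mice (n = 9; exact p = 0.111, adjusted 0.135). The slope per 10 points of GC percent was −0.0224 ± 0.0332 in Water, 0.0005 ± 0.0236 in Acute (exact permutation p = 0.113, adjusted 0.135) and 0.0244 ± 0.0299 in Chronic mice (exact p = 0.006, adjusted 0.036). Across the 28 mice the 8 members other than *Mbd3* had a Pearson correlation of 0.459 to 0.773 with the length slope, as a description, and *Mbd3* had −0.655. With the GC slope *Mbd3* had 0.704 and the others −0.646 (*Tet2*) to −0.0953 (*Uhrf2*). For the length slope the median size of the correlation over 11723 genes with at least 100 counts was 0.271. No such value is given for the GC slope, so its correlations stand without a background.

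Offsets then removed these trends from each mouse, together with any part of a drinking effect that followed them. With the offsets all members' values against Water came closer to 0. At the adjusted threshold 0 members passed, against 0% of all genes in Acute and 0.00615% in Chronic mice. The *Tet3* log2 fold change was −0.0998 in Acute mice (edgeR adjusted p = 0.677) and −0.132 in Chronic mice (adjusted p = 0.687). *Mbd5* had −0.0637 and −0.0452, and *Mbd3* had 0.0359 and 0.0365. *Tet2* had −0.0216 and −0.0043. *Tet1* went to 0.0204 in Acute mice. With the offsets 7 members were below 0 in each comparison, against 47.2% of all genes in Acute and 48.1% in Chronic mice, and the medians were −0.0473 and −0.0117. At an unadjusted p under 0.05 there were 2 members in Acute mice, *Tet3* and *Mbd5*, against 7.03% of all genes, and 1 in Chronic mice, *Tet3*, against 5.83%.

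**Figure D4:**
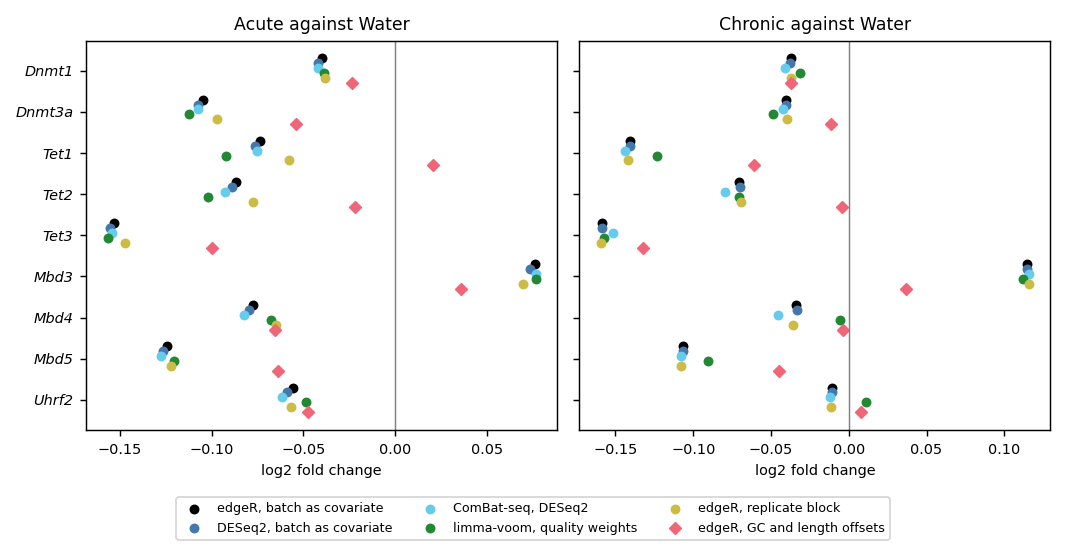
Log2 fold change of each member under 6 ways of fitting, with Acute against Water on the left and Chronic against Water on the right; dots are fits without length and GC offsets and diamonds the fit with them. The dots of *Mbd4* in Chronic mice run from −0.0457 to −0.0057 and those of *Uhrf2* from −0.0122 to 0.0109, across 0, and the diamonds of *Tet2*, *Mbd3* and *Mbd5* lie nearer to 0, as does the Acute diamond of *Tet3* at −0.0998.

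Levels of the members were also compared with each other between mice. Over the 28 mice, with batch means removed and all groups pooled, 28 of the 36 pairs had a correlation with an adjusted p under 0.05 (100000 permutations within batches), 22 of them positive and 6 negative. The smallest of these 28 had a size of 0.387, a size that 15.2% of all pairs of the 11723 genes with at least 100 counts reached, and the median size was 0.494 over the member pairs and 0.185 over all pairs. *Mbd3* was negative with each of the other 8 members. The lowest value was that of *Tet2* with *Mbd3* (Pearson's r = −0.723, permutation p = 3e-05, adjusted 0.00108; Spearman's rho = −0.692, permutation p = 0.00016, adjusted 0.00288). Within batches it was −0.841 and −0.635, and it was −0.722 without the 2 mice farthest from the median. The highest was that of *Tet1* with *Mbd5* (r = 0.647, permutation p = 0.00027, adjusted 0.00324; rho = 0.700, permutation p = 8e-05, adjusted 0.00288), with 0.560 and 0.694 in the batches and 0.629 without the 2 mice. All members of a mouse share its library and normalization. With the length and GC trends of each mouse removed, the median r of the 28 pairs without *Mbd3* went from 0.494 to 0.198, and that of the 8 pairs with *Mbd3* from −0.523 to −0.117. *Dnmt3a* with *Mbd3* kept −0.653, and *Mbd4* with *Uhrf2* had 0.571.

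**Figure D5:**
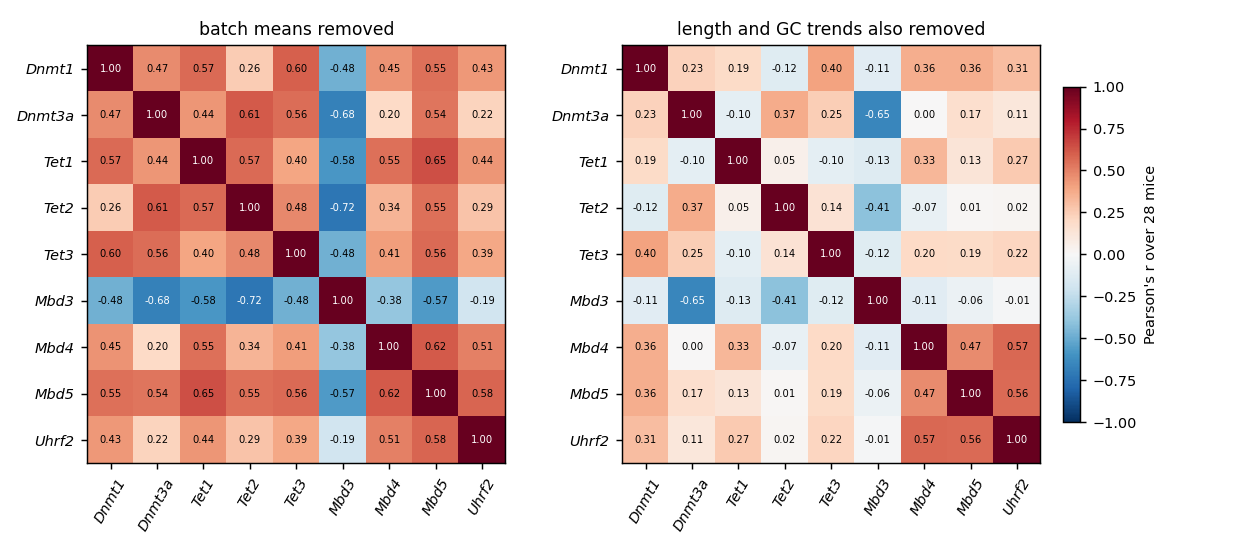
Pearson's r between the members over 28 mice, with batch means removed on the left and each mouse's length and GC trends also removed on the right; red is positive and blue negative. The median over all 36 pairs is 0.439 on the left and 0.135 on the right, and *Mbd3* is negative with the other 8 members on both sides.

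Among 11714 other genes with at least 100 counts, the gene most like *Mbd5* over the 28 mice was *Cacna1c*, a calcium channel subunit (Pearson's r = 0.922 on batch-adjusted log2 CPM). *Tet3* was most like *Setd1b*, a histone H3K4 methyltransferase (0.826), *Dnmt3a* most like *Nktr* (0.851) and *Tet1* most like *Mon2* (0.843). *Mbd3* was most like *Map1lc3a*, an autophagy protein (0.838), *Tet2* most like *Nbeal1* (0.820) and *Dnmt1* most like *Akap10* (0.812). *Mbd4* was most like *Rapgef2* (0.806) and *Uhrf2* most like *Stk4* (0.793). These are the highest of many values and are given as a description.

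The other genes of the pathway were read from 7 lists. Of 62 listed genes 60 were tested, and 0 passed in any comparison by edgeR. In Acute against Water mice 2 had an unadjusted p under 0.05 and a higher level, against 5.07% of all genes, and 4 a lower level, against 4.45%. In Chronic mice 0 were higher and 4 lower, against 4.81% and 5.65%. The medians of the 60 genes were −0.0009 and −0.0071, close to those of all genes.

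Of the PR-DUB genes around *Mbd5*, 3 of 9 had an unadjusted p under 0.05 and a lower level in Acute mice and 2 in Chronic mice, against 4.45% and 5.65% of all genes. *Asxl2*, a cofactor of the deubiquitinase, had log2 fold changes of −0.143 and −0.147, and *Hcfc1*, a scaffold of the complex, had −0.105 and −0.0996. *Foxk1*, a DNA-binding partner, had −0.124 in Acute and −0.0042 in Chronic mice. Of the 13 NuRD genes around *Mbd3*, 1 had an unadjusted p under 0.05 and a higher level in Acute mice, against 5.07% of all genes. In Chronic mice 2 had a lower level at this p, against 5.65%. The histone chaperone *Rbbp4* had 0.0822 in Acute and −0.0075 in Chronic mice. The deacetylase *Hdac2* had −0.0004 in Acute and −0.102 in Chronic mice, and *Gatad2b* had −0.0652 and −0.0840. *Hdac2* passed under DESeq2 after ComBat-seq (−0.102, adjusted p = 0.039), as 1.05% of the 8396 genes with an adjusted p did. Of 4 Tet cofactors tested 1, *Ogt*, which binds Tet proteins, had a lower level at this p in Acute mice, against 4.45% of all genes. The *Ogt* values were −0.0797 in Acute and −0.0723 in Chronic mice. Of 10 methyl donor genes 1, *Mat2a*, which makes S-adenosylmethionine, had a higher level at this p in Acute mice, against 5.07%. The *Mat2a* values were 0.0673 and 0.0385. In Chronic mice both lists had 0 genes under this p. None of the 12 demethylation and repair genes or the 7 other readers had an unadjusted p under 0.05 against Water. The 6 other methyltransferase family genes and cofactors had none either. Of all genes 9.52% had such a p in Acute and 10.5% in Chronic mice. After adjustment 0 of each list passed, against 0% and 0.0184% of all genes. *Tdg*, the glycosylase that removes oxidized methylcytosine, had log2 fold changes of 0.0049 and −0.0807.

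In tissue RNA fewer cells of a type and less RNA per cell cannot be told apart. Of 10 marker lists for cell types and for regions in or near the punch, 9 had all their markers tested and the oligodendrocyte list 9 of 10. The mean marker score of neurons differed from Water by 0.0476 in Acute and 0.0206 in Chronic mice (log2). It ran from −0.0864 to 0.0376 in Water, −0.0250 to 0.105 in Acute and −0.0345 to 0.0541 in Chronic mice. This was the only list whose Acute difference exceeded its SD over the 28 mice (0.0430). Of its 10 markers 3 had an unadjusted p under 0.05 in Acute mice and 1 in Chronic mice, against 9.52% and 10.5% of all genes. The astrocyte list had 3 of 10 in Acute and 3 of 10 in Chronic mice. No other list had more than 2 in either group. The score of oligodendrocyte precursors (OPC) differed by −0.0081 and −0.0228 (log2, 8 of 8 markers tested). OPC scores ran from −0.202 to 0.111 in Water, −0.0816 to 0.118 in Acute and −0.160 to 0.0847 in Chronic mice, and had a correlation of 0.528 with *Tet3* over the 28 mice. The central amygdala score, from 6 markers, differed by 0.200 in Acute and 0.0554 in Chronic mice and had a correlation of −0.435 with *Mbd5*. It ran from −0.435 to 0.135 in Water, −0.204 to 0.334 in Acute and −0.555 to 0.272 in Chronic mice. These are the correlations largest in size among the 10 lists with *Tet3*, *Mbd3* and *Mbd5*. The other lists differed from Water, first in Acute and then in Chronic mice, by 0.0083 and −0.0068 for astrocytes, −0.0057 and −0.0201 for microglia, 0.113 and 0.0631 for oligodendrocytes, and 0.0206 and 0.0080 for endothelial cells. Regional scores differed by −0.0531 and 0.0081 for the basolateral amygdala, 0.163 and −0.257 for the striatum (SD over the 28 mice 0.583) and −0.233 and −0.371 for the choroid plexus (SD 1.80). The part of these scores in the members' values was not tested.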

How the data were processed

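Amygdala RNA of 28 mice was sequenced as paired-end reads. The authors ran Salmon 0.14.1 on a transcriptome of GRCm38, added transcripts up to genes in tximport (GENCODE M21) and deposited estimated counts as whole numbers, 1 table per batch, neither normalized nor adjusted for batch. Salmon divides reads that fit several transcripts by a model. The 2 tables were merged by gene identifier, version left out. The identifiers of the first are all in GENCODE M21, and of the second 50047 of 51073 are with the same version, so the annotation differed with batch, while those of the members were alike. In the merge no column was left unmapped. Mice of a group and batch were compared for duplicated libraries: over 55 pairs chi-square per degree of freedom was 4.64 to 26.8, so none was merged.

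R 4.3.3 was used, with edgeR 4.0.16, limma 3.58.1, DESeq2 1.42.0 and sva 3.50.0. Genes that averaged at least 10 counts were fitted with edgeR's quasi-likelihood test (TMM, batch and group as terms, all 28 mice) and adjusted by Benjamini-Hochberg over all genes tested, with a threshold of 0.05. CPM and log2 CPM used a prior count of 2 where logged. Batch means were removed from log2 CPM for levels, correlations and the counts of mice above or below the Water mean. Permutation tests of slopes enumerated every regrouping within batches, and correlations used 100000 permutations. Length and GC came from the longest coding transcript of each gene in GENCODE M21. Promoter windows came from RefSeq, and all 9 members matched. The code was tested on simulated data.

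All 9 members were named. Pathway genes were named where an unadjusted p against Water was under 0.05. *Tdg*, *Dnmt3b*, *Uhrf1* and *Dnmt3l* were named after their values were seen. The members, lists, tests and alternatives were chosen with earlier results of these data known. Marker lists covered neurons, astrocytes, microglia, oligodendrocytes, OPC, endothelial cells, central and basolateral amygdala, striatum and choroid plexus. The counting error of each level follows from its count, and the spread between mice limits precision for most members. Results were recomputed with DESeq2 and batch as a covariate, ComBat-seq followed by DESeq2 (the route of the study), limma-voom with quality weights, RLE and upper quartile normalization, no filter, a mean of at least 100 counts, each batch alone, a replicate block, length and GC offsets, both together, the 2 groups compared alone, and each mouse left out. Removing length and GC trends before the correlations, and the mean transcript length for levels and shares, were added after seeing the data.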

Additional observations from a re-analysis of the deposited data

Results flagged for a closer look

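In the Chronic group *Dnmt1* was lowest in replicate 1 of the second batch, with 53.2 batch-adjusted CPM, against 57.0 in the next lowest mouse and a group median of 57.9. The gap to the next mouse on the log2 scale was 0.506 of the range of the 9 mice, just over the limit of Dixon's test at 95% (0.493). On the CPM scale it was 0.489, under the limit. Of 27 combinations of a member and a group tested, 1 met this limit, and chance alone gives about 1 in 20. The same mouse had the lowest length slope of the 28, −0.0677, with the next lowest at −0.0283. Over the 28 mice *Dnmt1* had a correlation of 0.773 with that slope. The part of the slope in this value was not tested. Without this mouse no member passed the threshold in any comparison.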

How the results depend on the processing

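No member with an adjusted p passed the threshold in the 3 comparisons, under any alternative or with any mouse left out. *Tet1* and *Mbd4* had none under DESeq2 (both groups against Water) and ComBat-seq (Chronic), and so were not tested there. The batch interaction, not run after ComBat-seq, in a single batch or with 2 groups alone, called 0 members in the other fits. The lowest adjusted p values were 0.0652 for *Mbd3* and 0.0827 for *Tet3* in Chronic mice, both under ComBat-seq and DESeq2. *Tet3*, *Mbd5*, *Mbd3*, *Dnmt3a*, *Dnmt1* and *Tet2* kept their direction against Water in every alternative and with any mouse left out. Over the alternatives other than leaving out a mouse, the log2 fold change of *Tet3* ran from −0.175 to −0.0971 (Acute) and −0.217 to −0.0563 (Chronic), and that of *Mbd3* from 0.0347 to 0.0901 and 0.0364 to 0.135. With a mouse left out these ran from −0.175 to −0.139 and −0.179 to −0.137 for *Tet3*, and from 0.0610 to 0.0923 and 0.0884 to 0.137 for *Mbd3*. Smaller values moved by over 1.5 times with 1 mouse left out, and the extremes were as follows. The median of the members in Chronic mice ran from −0.0842 (without Chronic replicate 37) to −0.0228 (1). In Chronic mice *Dnmt3a* went from −0.0401 to −0.0027 (without Chronic replicate 39) and −0.0770 (38), *Dnmt1* from −0.0374 to −0.0228 (1), *Mbd4* from −0.0342 to −0.0842 (37) and −0.0115 (1), and *Tet2* from −0.0704 to −0.0453 (39). In Acute mice *Tet1* went from −0.0735 to −0.0351 (without Acute replicate 35). Between Chronic and Acute mice, values ran from 0.0287 to 0.1036 for *Dnmt3a*, −0.1062 to −0.0289 for *Tet1*, 0.0113 to 0.0632 for *Mbd3*, 0.0016 to 0.0371 for *Mbd5* and 0.0258 to 0.0631 for *Uhrf2*.

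Over all genes, the 0 calls in Acute mice became 9 with DESeq2, 30 with ComBat-seq and DESeq2, 2 with limma-voom and 1 without a filter. The 3 calls in Chronic mice became 38 with DESeq2, 88 with ComBat-seq, 0 in the first batch alone and 1 with length and GC offsets, also with the block added, and the 0 of Chronic against Acute became 1 without a filter. With a mouse left out, calls ran from 0 to 2 in Acute and from 2 (without Chronic replicate 38) to 6 (without Water replicate 3) in Chronic mice. Of the pathway genes 1 passed in Chronic mice with ComBat-seq, against 1.05% of all genes. The causes were not tested.

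The sign turned for small values. *Tet3* between Chronic and Acute mice went to 0.0029 (ComBat-seq), 0.0673 (first batch) and 0.0011 (2 groups alone). *Uhrf2* in Chronic mice went to 0.0109 (limma-voom), 0.0129 (second batch), 0.0078 (offsets) and 0.0064 (offsets with block). The first batch alone gave 0.0378 for *Mbd4* in Chronic mice and 0.144 for *Tet1* between Chronic and Acute. The second batch alone gave 0.0154 for *Uhrf2* in Acute mice, and −0.0259 for *Dnmt1* and −0.0025 for *Uhrf2* between Chronic and Acute. Offsets gave 0.0204 for *Tet1* in Acute mice (0.0317 with the block) and −0.0134 for *Dnmt1* between Chronic and Acute (−0.0144 with the block). With a mouse left out, the values between Chronic and Acute ran from −0.0079 to 0.0166 for *Dnmt1*, −0.0083 to 0.0423 for *Tet2*, −0.0257 to 0.0170 for *Tet3* and −0.0088 to 0.0653 for *Mbd4*, and from −0.0300 to 0.0076 for *Uhrf2* in Chronic mice. The median r between members of 0.439 became 0.135 with trends removed.

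Replicate numbers of the second batch showed no pairing of mice. Over 16 pairs with the same number the deviations had a median correlation of −0.00798, and 4 were over 0.1. Over 80 pairs with different numbers the median was 0.0232, and 26 were over 0.1. With the number as a block, 0 members passed, and *Tet3* had log2 fold changes of −0.147 in Acute and −0.160 in Chronic mice. Standard errors against Water ran from 0.0272 for *Dnmt1* to 0.0910 for *Tet1*, and the intervals in the text bound what these mice could show.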
